A study of Mus musculus with 192 samples.

Results

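Translation factors are the proteins that start protein synthesis on a messenger RNA and carry the ribosome along it. Their genes were picked from the deposited RefSeq table of start-site windows (stretches of 150 bp in which HOMER placed a peak in at least 1 cell). The rule took windows within 1000 bp of an annotated start whose gene name begins with Eif or Eef and a digit, and left out the Eif2ak kinases. It found 62 of the 12499 genes with a window that close, and 1205 of 136788 such windows. A peak on the strand of the gene was listed in a kept cell for 61 of the 62, and Eif3j2 had none. Eif4ebp3 bears a matching name but has no window within 1000 bp of a start, and Eif2s3y has no window in the table. At the 1000 bp edge, the genes had 6793 naïve and 12548 pretreated sense tags between 900 and 1000 bp from a start, and 16809 and 5558 between 1000 and 1100 bp.

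The cells were mouse embryonic fibroblasts (connective-tissue cells grown from embryos) of strain C57BL/6, cultured on plastic. Every cell received interferon-beta, an antiviral signalling protein, at 100 U/ml for 1 h. The groups were 96 naïve cells (titled Naïve-1h) and 96 pretreated cells (titled Preteated-1h). The agent and length of pretreatment are not given in the labels, nor is any animal, age, culture or plate, so the pretreatment cannot be told apart from a difference in handling between the groups. The assay, single-cell TSS-seq, reads transcription start sites from polyadenylated RNA, with 1 file of peaks per cell. Because no independent culture is named, each group is 1 sample made of many cells: nothing was tested between the groups, and the intervals given are exact counting intervals at 95%. Reads carried no stated molecular identifiers, so these intervals cover counting error only.

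After cells with under 10% of the median total were left out, 92 naïve and 85 pretreated cells remained, with 305066 to 3857034 and 502374 to 13174313 total tags (reads). Windows within 1000 bp of a start took 54.2% of the naïve total in sense tags, and 60.97% of the pretreated total. Listed peaks hold 90.1% of naïve and 84.6% of pretreated tags, and the rest have no position in the files. No peak on the mitochondrial chromosome was listed in the kept pretreated cells, against peaks with 1390011 tags in naïve cells. Of 11 fibroblast markers, 10 were listed in naïve and 9 in pretreated cells, led by Vim and Col1a1; Lum was at 0 in both groups, Thy1 at 0.674 and 0 CPM and Dcn at 3.13 and 0.513 CPM. The summed level of these markers per cell had a median of 1436 CPM over naïve and 1872 CPM over pretreated cells. Vim was higher in pretreated cells (595 and 1088 CPM), while Fn1 (287 and 147 CPM), Col3a1 (137 and 95.5 CPM) and Pdgfra (9.76 and 2.53 CPM) were lower. The 4 epithelial markers were at 0 in both groups, as were Ptprc and Adgre1 of the macrophage list, Pecam1 and Cdh5 of the endothelial list and Sox2 of the neural list. The other members of those lists were low: Map2 was at 0 and 10.5 CPM (11 pretreated cells), Cd68 at 7.74 and 1.68 CPM (8 and 3 cells), Kdr at 0 and 2.76 CPM and Tubb3 at 2.54 and 0 CPM. Lyz2 and Csf1r were each listed in 1 naïve cell. Of interferon-response genes, B2m was listed at 251 CPM over naïve and 2288 CPM over pretreated cells, and Bst2 at 26.7 and 1141 CPM. The part of these marker and mapping differences in the values below was not tested.

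Initiation begins when eIF2 brings the initiator tRNA to the small ribosomal subunit, together with eIF1, eIF1A, eIF5 and the large eIF3 complex. The eIF4 proteins bind the cap of the mRNA and unwind its leader, and 4E-BP proteins block that step by holding the cap-binding protein eIF4E. During elongation, eEF1A delivers aminoacyl-tRNA, the eEF1B subunits recharge eEF1A with GTP, eEF2 moves the ribosome forward, and eIF5A relieves stalls. Many mRNAs of this machinery start with a C followed by a run of C and T letters, the 5′ terminal oligopyrimidine (TOP) tract, through which mTOR signalling controls their translation.

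Sequences of the region around the annotated start were taken from RefSeq (GRCm38.p6), whose table held 48 of the 61 genes. Shown first are the promoters of Eef2 and Eif1, in which tags gathered at a single site in at least 1 group and a TATA-type motif stands close by. Eef1a1 is shown because it has the same motif but few listed tags near its start. Capitals mark TATAAA in Eef2, TATATAA in the other two, and the pyrimidine motif CTCTTCC in Eef2. Each stretch runs from 60 bases before to 30 bases from the annotated start onward.
Eef2 (chr10:81176571-81176660, + strand): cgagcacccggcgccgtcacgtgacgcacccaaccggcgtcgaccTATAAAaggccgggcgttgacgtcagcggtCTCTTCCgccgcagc
Eif1 (chr11:100319889-100319978, + strand): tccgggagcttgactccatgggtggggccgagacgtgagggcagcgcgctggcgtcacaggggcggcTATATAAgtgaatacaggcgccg
Eef1a1 (chr9:78481695-78481784, − strand): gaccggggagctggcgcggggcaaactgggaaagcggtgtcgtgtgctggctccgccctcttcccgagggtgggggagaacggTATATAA

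In Eef2, TATAAA begins at -15 and CTCTTCC, a C followed by pyrimidines, at 15 bases from the annotated start. In the deposited mm9 table, the leading Eef2 window has its centre 15 bp after the annotated start. In Eif1, TATATAA begins 7 bases after the annotated start, and the leading naïve window is centred 38 bp after it on mm9. The sequences and the distances come from different builds, and whether the annotated start is the same base in both was not tested. TATAAA was found on the strand of the gene within 50 bases either side of the start in 1 of the 48 genes (Eef2), and TATATAA in Eef1a1 and Eif1. Over all 32851 RefSeq promoter entries, 3.40% held TATAAA and 0.919% held TATATAA in that window, and on either strand 4.94% and 1.11%. CTCTTCC stood in Eef1a1, Eef2 and Eif3c, and in 1.94% of all entries on the strand of the gene and 4.11% on either strand. In Eef1a1 this CTCTTCC runs across the annotated start and is left in lower case above.

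For contrast, 2 promoters in which neither TATA-type motif nor CTCTTCC was found are shown, with the first base of the annotated transcript in capitals. A pyrimidine tract of at least 8 letters starting with C was also searched for in the same stretch on the strand of the gene. It stood in 23 of 62 entries (21 of the 48 genes), against 28.8% of all entries. Eif3g has such a tract at -37. Eif3g had nearly all its tags at 1 site, whereas the sites of Eif2s1 were spread out.
Eif3g (chr9:20898561-20898650, − strand): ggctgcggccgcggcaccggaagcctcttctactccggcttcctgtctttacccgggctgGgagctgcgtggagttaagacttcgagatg
Eif2s1 (chr12:78862012-78862101, + strand): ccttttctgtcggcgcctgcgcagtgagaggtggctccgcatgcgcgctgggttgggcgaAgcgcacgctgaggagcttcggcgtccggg

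Levels are given as CPM, the sense tags of a gene within 1000 bp of its start per 1000000 total tags of the cells. Together the 61 genes summed to 7828 CPM (1591670 tags) over naïve and 11308 CPM (3242828 tags) over pretreated cells. The log2 ratio, pretreated over naïve, was 0.53 (0.53 to 0.53). Eif5a alone held 25.05% of these tags in naïve and 43.04% in pretreated cells. Without it the sums were 5868 and 6441 CPM, a log2 ratio of 0.13 (0.13 to 0.14). Most of the gap between the summed levels therefore lay in Eif5a.

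In single naïve cells the summed level ran from 367 CPM through a median of 7419 CPM to 13342 CPM. In pretreated cells it ran from 376 through 10962 to 18878 CPM, so the groups overlap widely. One cell of each group stood apart, naïve cell 31 at 367 CPM and pretreated cell 93 at 376 CPM, while the next lowest were at 3558 and 3364 CPM. In those 2 cells 8.96% and 10.3% of tags were sense promoter tags, against at least 32.5% and 38.6% in the others. Without them the log2 ratio of the summed levels was 0.54. A naïve cell listed a median of 27 of the 61 genes (range 6 to 37) and a pretreated cell 33 (range 5 to 41).

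Of the 61 genes, 44 had a mean of the group levels of at least 10 CPM, and the folds below are counted over these. The other 17 had few tags within 1000 bp of a start in both groups and include genes that are central to initiation. At least 2-fold higher in pretreated cells were 10 of the 44 (22.7%), against 27.2% of the 4540 genes that passed the same minimum. At least 2-fold lower were 4 of the 44 (9.09%), against 10.6% of all. Both shares lie near the background. The median log2 ratio of the 44 was 0.40 (quartiles -0.25 and 0.87), and that of all 4540 genes was also 0.40 (-0.26 and 1.07). A ratio above 0 was found in 31 of the 44 (70.5%) and in 66.4% of all genes. The general offset was 0.40 on the log2 scale: centred on the median of all genes, 5 of the 44 were 2-fold higher and 6 lower. Of all 4540 genes, 752 were then higher and 744 lower, which are larger shares than among the 44. The 5 were Eef1akmt4, Eef2, Eif2b4, Eif4e3 and Eif6, and the 6 were Eef1d, Eef1g, Eif1, Eif1b, Eif3h and Eif4ebp1. Nearest to the 2-fold line on the higher side were Eif3d at 1.30 and, under it, Eif2s3x at 0.90. On the lower side they were Eef1d at -1.69 and, within 2-fold, Eif4ebp1 at -0.94.

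**Figure D1:**
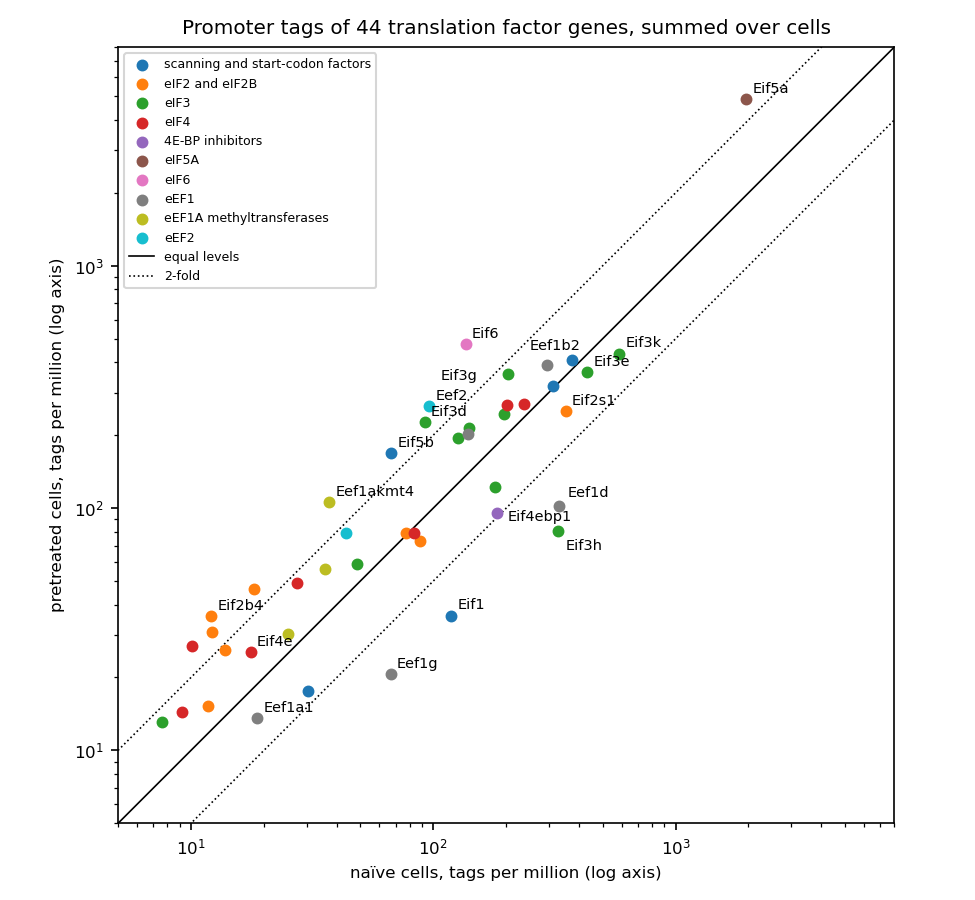
Level of each of the 44 genes in naïve cells (x axis) and pretreated cells (y axis), in CPM, summed over the cells of a group, both on log axes, coloured by role; the solid line marks equal levels and the dotted lines 2-fold. Eif5a stands far above the rest at 1961 and 4867 CPM, while Eif3h, Eef1d, Eif1 and Eef1g lie below the lower dotted line.

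Among the factors of scanning, start-codon choice and subunit joining, 5 of 7 passed the minimum, with 1 at least 2-fold higher and 1 lower. Over all genes 27.2% were higher and 10.6% lower. Each role holds too few genes for its counts, here and below, to be set apart from those shares. Eif1, whose protein guards against starting at wrong codons, was at 119 CPM in the naïve and 35.99 CPM in the pretreated group, log2 ratio -1.72 (-1.75 to -1.69). Its levels in naïve cells ran from 0 through 95.5 to 550 CPM, and in pretreated cells from 0 through 0 to 532 CPM. The ranges are nearly the same, but 86 of 92 naïve and 35 of 85 pretreated cells listed it. Within 50 bp of a window in intron 1, 625 bp after the start, lay 95.5% of its pretreated and 27.1% of its naïve tags. The levels of the groups thus draw largely on different positions. Eif1a and Eif1ax, which encode forms of eIF1A, had 373 and 408 CPM, and 313 and 320 CPM, with log2 ratios of 0.13 and 0.03. These small ratios turned negative, to -0.27 and -0.37, when the groups were centred on all genes. Eif5b, the GTPase that joins the ribosomal subunits, was at 67.003 and 169 CPM with a log2 ratio of 1.33 (1.31 to 1.36), and was listed in 63 naïve and 79 pretreated cells. Eif1b was at 30.5 and 17.6 CPM with a log2 ratio of -0.79. Eif5, which triggers GTP hydrolysis by eIF2, had 2.45 and 4.02 CPM and Eif1ad was listed at 0 in naïve cells and in 3 pretreated cells.

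Among the genes named Eif2 (eIF2, its exchange factor eIF2B, and the separate factors Eif2a and Eif2d), 8 of 10 passed the minimum. Of these, Eif2b2, Eif2b4 and Eif2d were at least 2-fold higher and none was lower. The shares over all genes were 27.2% and 10.6%. Eif2s1, the alpha subunit of eIF2 on which the stress kinases act, was at 353 CPM in the naïve and 251 CPM in the pretreated group, log2 ratio -0.49 (-0.51 to -0.48). Naïve cells ran from 0 through 299 to 1389 CPM and pretreated cells from 0 through 242 to 857 CPM. The cells of the groups overlap over most of their range. The beta and gamma subunits Eif2s2 and Eif2s3x had 77.2 and 78.97 CPM, and 13.9 and 25.9 CPM. Of the eIF2B genes, Eif2b4 had 12.2 and 35.9 CPM (log2 ratio 1.561, 1.498 to 1.625) and Eif2b2 12.2 and 30.9 CPM (1.34), while Eif2b1 had 87.9 and 73.3 CPM (-0.26) and Eif2b3 11.7 and 15.2 CPM (0.37). Eif2b5, the catalytic subunit, was listed at 0 in naïve cells and had 1921 tags in 10 pretreated cells. Eif2d, which can also bring initiator tRNA to the ribosome, was at 18.2 and 46.2 CPM with a log2 ratio of 1.34. The subunits of eIF2B thus did not share 1 level or 1 ratio.

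The eIF3 complex scaffolds initiation on the small subunit, and 11 of its 13 measured genes passed the minimum. Of these, Eif3d was at least 2-fold higher and Eif3h at least 2-fold lower (27.2% and 10.6% over all genes). The median log2 ratio was 0.32. Eif3k was the most abundant, at 585 CPM in the naïve and 434 CPM in the pretreated group, log2 ratio -0.43 (-0.44 to -0.42). Its cells ran from 0 through 509 to 1889 CPM and from 0 through 417 to 909 CPM, and 91 naïve and 84 pretreated cells listed it. Eif3e had 433 and 365 CPM (log2 ratio -0.25), Eif3g 203 and 359 CPM (0.82) and Eif3a 195 and 243 CPM (0.32), which turned to -0.08 after centring. Eif3d, a subunit that can itself contact the cap, was at 92.1 and 227 CPM with a log2 ratio of 1.30 (1.28 to 1.32), and went from 57 to 83 listing cells. Eif3h was at 326 CPM in the naïve and 80.5 CPM in the pretreated group, log2 ratio -2.02 (-2.041 to -1.998), the lowest among the 44. Its naïve cells ran from 0 through 229.9 to 1240 CPM and its pretreated cells from 0 through 60.3 to 249.9 CPM, so the median naïve cell lay close to the highest pretreated cell. Eif3b had 7.36 and 3.17 CPM and Eif3j1 78 tags in 1 pretreated cell.

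Among the eIF4 genes, 7 of 12 passed the minimum, with Eif4e3 at least 2-fold higher and none lower (27.2% and 10.6% over all genes). Eif4a3, the helicase of the exon junction complex, had 237 and 269 CPM (log2 ratio 0.18, and -0.21 after centring), and Eif4e2, a relative of eIF4E, 202 and 267 CPM (0.40). Eif4e, the cap-binding protein itself, was at 17.7 and 25.5 CPM with a log2 ratio of 0.53 (0.47 to 0.59), and was listed in 20 naïve and 35 pretreated cells. Eif4e3 was at 10.1 and 27.1 CPM with a log2 ratio of 1.42 (1.355 to 1.496), but from 5 naïve and 24 pretreated cells, and the ratio was 3.76 once the highest cell of each group was left out. The first 100 bases of its transcript are shared entirely with the gene model Gm20696, so its level is uncertain. Whether that model lies at the same place in the genome was not checked. Eif4a2, an RNA helicase, had 83.03 and 78.8 CPM. Within 1000 bp of a start the scaffold genes were low, with 11.4 and 7.52 CPM for Eif4g1 and 5.50 and 3.63 CPM for Eif4g2. Sense tags assigned to Eif4g1 beyond that distance numbered 10922 in 66 naïve and 3295 in 25 pretreated cells. For Eif4g2 they numbered 14177 in 66 naïve and 13643 in 61 pretreated cells. Whether those tags start in these genes was not tested. Within 1000 bp, Eif4a1 had 262 tags in 1 naïve and 69 in 1 pretreated cell. Eif4ebp1, an inhibitor of eIF4E, was at 183 CPM in the naïve and 95.4 CPM in the pretreated group, log2 ratio -0.94 (-0.96 to -0.92). It ran from 0 through 93.7 to 1249 CPM in naïve and from 0 through 36.4 to 419 CPM in pretreated cells. Eif4ebp2 had 106 and 677 tags in 1 and 6 cells.

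Eif5a, whose protein carries the modified amino acid hypusine, reached 1961 CPM (398677 tags) in the naïve group and 4867 CPM (1395786 tags) in the pretreated one. Naïve cells ran from 118 through 1728 to 6079 CPM and pretreated cells from 60.2 through 4709 to 11214 CPM. The groups overlap, yet the pretreated median lay far above the naïve one, and every kept cell listed the gene. The lowest cell of each group was the one that stands apart. The log2 ratio was 1.31 (1.31 to 1.32), and 0.91 after centring, which is under 2-fold. Eif6, which keeps the large ribosomal subunit from joining too early, was at 136 and 474 CPM with a log2 ratio of 1.80 (1.78 to 1.82), the highest among the 44. Its cells ran from 0 through 106 to 674 CPM and from 0 through 393 to 1538 CPM, with 73 and 84 cells listing it. Eif5a2 had 87 and 650 tags in 1 and 3 cells.

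**Figure D2:**
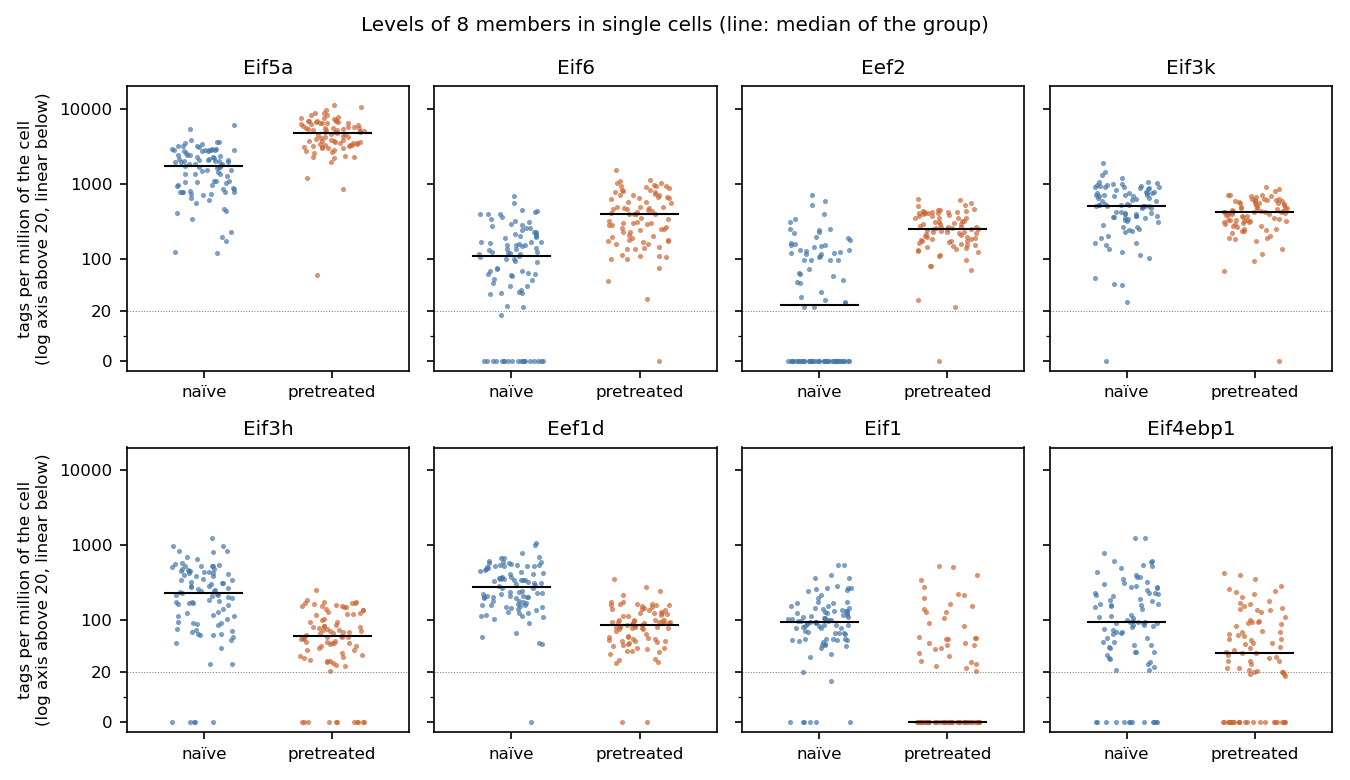
Level of 8 genes in each kept cell (92 naïve and 85 pretreated), in CPM of the cell, on an axis that is logarithmic above 20 and linear below it; each point is 1 cell and each line the median of the group. Eif5a was listed in every cell, while Eif1 was at 0 in most pretreated cells and Eef2 in 44 naïve cells.

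All 5 elongation genes of the eEF1 group passed the minimum. The subunits of the exchange factor differed: Eef1b2 was at 294 and 390 CPM with a log2 ratio of 0.41 (0.39 to 0.42), while Eef1d had 330 and 102.4 CPM (-1.69, -1.71 to -1.67) and Eef1g 66.8 and 20.7 CPM (-1.69, -1.74 to -1.65). The Eef1g values may include tags of a neighbouring gene, as described below with the positions. Eef1d ran from 0 through 277 to 1052 CPM in naïve and from 0 through 85.7 to 356 CPM in pretreated cells. It was listed in 91 of 92 and 83 of 85 cells, so its level differed more than its detection. Eef1e1, a scaffold protein of the aminoacyl-tRNA synthetase complex, had 139 and 203 CPM. Eef1a1, which delivers aminoacyl-tRNA and is among the most abundant mRNAs of mammalian cells, had just 18.7 and 13.6 CPM from 18 naïve and 31 pretreated cells.

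Eef2, the translocation factor, was at 96.1 CPM in the naïve and 263 CPM in the pretreated group, log2 ratio 1.45 (1.43 to 1.48). Naïve cells ran from 0 through 24.01 to 696 CPM and pretreated cells from 0 through 249 to 614 CPM. The highest cells of the groups are alike, and the gene was listed in 48 of 92 naïve and 84 of 85 pretreated cells. Its kinase Eef2k had 283 and 390 tags in 2 cells of each group, and Eef2kmt, a methyltransferase of eEF2, 43.8 and 79.3 CPM (0.86). Of the 6 methyltransferase genes that act on eEF1A or carry that name, Eef1akmt4 was at 37.1 and 106 CPM with a log2 ratio of 1.51 (1.48 to 1.55). Eef1akmt4 and the read-through gene Eef1akmt4-ece2 share 1 promoter region, with leading windows that start at 20611616 and 20611599 of chromosome 16, and tags were split between them by position. Eef1akmt3 had 6.23 and 10.2 CPM and Eef1akmt2 35.7 and 56.2 CPM.

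Of the 10 genes long known as TOP mRNAs, which all passed the minimum, Eef2 was at least 2-fold higher and Eef1d, Eef1g and Eif3h were at least 2-fold lower. Among the other 34 genes that passed, 9 were higher and 1, Eif1, was lower. Over all genes 27.2% were higher and 10.6% lower, and the 9 of 34 lie near that share. The lower counts, 3 of 10 and 1 of 34, rest on few genes, and tags of Eef1g cannot be told apart from those of a neighbouring gene. The medians were 0.03 and 0.54. No difference between these sets was tested. In single cells the 10 TOP genes summed to a median of 1702 CPM over naïve and 1451 CPM over pretreated cells, and the other 51 to 5620 and 9208 CPM. Eif5a, which is among these 51, alone had medians of 1728 and 4709 CPM, so much of that gap lay in Eif5a. The TOP genes Eif3f, Eif4b and Eef1a1 were near the minimum at 10.3, 11.8 and 16.2 CPM (mean of the groups).

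The share of cells that list a gene differed between the groups for most of the 44. It was larger in pretreated cells for 36 of the 44 (81.8%), against 84.6% of all genes that passed, and smaller for 7: Eef1d, Eef1g, Eif1, Eif3e, Eif3h, Eif3k and Eif4ebp1. Listed in at least 90% of cells were 11 genes in naïve and 21 in pretreated cells, a count that was not made over all genes. The median share of listing cells was 69.6% in naïve and 87.6% in pretreated cells over the 44. Over all genes that passed it was 28.3% and 50.6%, so a larger share in pretreated cells was general. A cell without a listed peak is one with no sense peak within 1000 bp of the start that passed the peak caller. The rules of the caller include a minimum of 20 CPM of the cell (a few listed peaks lie just under it). Such a cell is not shown to lack the RNA.

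**Figure D3:**
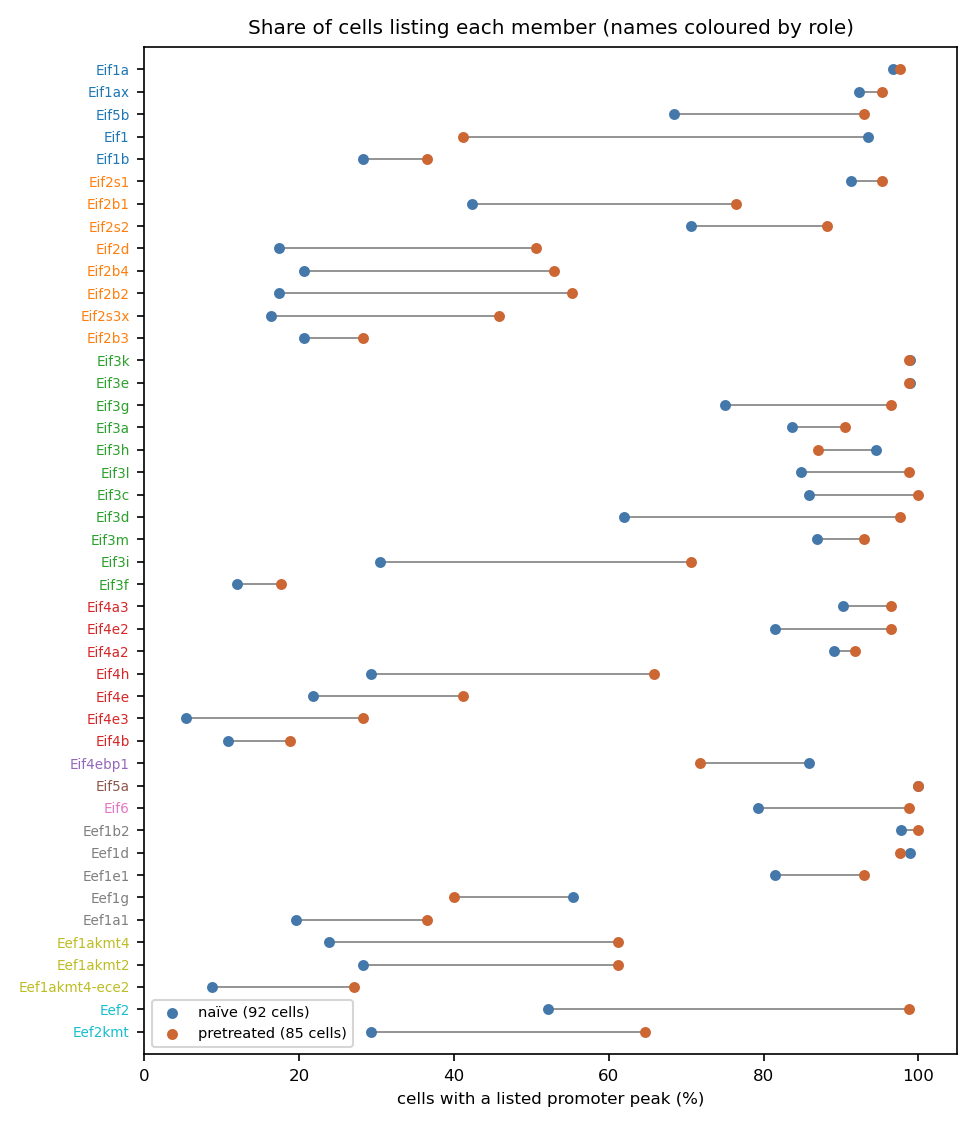
Share of kept cells with a listed promoter peak for each of the 44 genes, in percent, with naïve cells in blue, pretreated cells in orange and gene names coloured by role. For 36 genes the pretreated point lies to the right, and Eif1 shows the widest gap the other way, from 86 of 92 to 35 of 85 cells.

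The position of the start sites was described next. A cell can list at most 1 peak per 300 bp and strand, so nearby sites in 1 cell are merged into its main one, and the windows of a gene show where that main site lay in different cells. Tags of the 61 genes fell in 1040 windows, 441 of which (42.4%) were seen in 1 cell, a share that was not computed over all genes. The leading windows of the groups, those with most tags, lay within 10 bp of each other for 24 of the 44 genes (54.5%), against 56.5% of all genes. They were identical for 18 of the 44, and for 1489 of all 4511 genes. They lay 11 to 49 bp apart in 15 of the 44, and in 1310 of all 4511 genes. At least 50 bp apart were those of 5 (11.4%, against 14.5% of all). When windows within 10 bp of each other were chained, 39 of the 44 had the same leading site. A chain has no limit of length and can join leading windows over 10 bp apart, so this count does not show that positions were shared. The same count over all genes was not made.

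Eef2 and Eif3g had the sharpest use of 1 position. An Eef2 window on chromosome 10 (80639317 to 80639466, + strand, mm9), 15 bp after the annotated start, took 94.2% (naïve) and 99.1% (pretreated) of the gene's tags, in 43 and 81 cells. For Eif3g, a window 10 bp before the start (chromosome 9, 20702970 to 20703119, − strand) held 92.7% and 91.4%, in 59 and 72 cells. Eif5a used the same leading window in both groups (chromosome 11, 69734694 to 69734843, − strand, 9 bp after the start), with 53.5% and 48.6% of tags. The window 2 bp away, 7 bp after the start, held 6.07% of naïve and 41.3% of pretreated Eif5a tags.

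Eif3h and Eif4ebp1 had different main positions in the files of the groups. Mitochondrial peaks were listed in naïve cells alone, the alignment settings used for each group are not given in the sources used here, and the part of any such difference in the positions of Eif3h, Eif4ebp1, Eef1d and Eif1 was not tested. For Eif3h, a promoter window 12 bp before the start (chromosome 15, 51696945 to 51697094 on the − strand) was the main site in 40 naïve cells, with 46.9% of the tags, and was listed at 0 in pretreated cells. The window 8 bp after the start (51696925 to 51697074) was the main one in 4 naïve and 29 pretreated cells, with 0.433% and 41.5% of the tags. For Eif4ebp1, a promoter window 67 bp after the start (chromosome 8, 28370792 to 28370941 on the + strand) was the main site in 38 naïve cells, with 32.5% of the tags, and had none in pretreated cells. The one 15 bp after the start (28370740 to 28370889) held 0.403% of naïve tags from 1 cell and 41.1% of pretreated tags from 17 cells. The tag-weighted median position of Eif4ebp1 was 72 bp after the start in naïve and 15 bp in pretreated cells, with quartiles of 67 and 74, and 8 and 17. For Eef1d the medians lay closer, 48 bp and 38 bp, and its leading naïve window (chromosome 15, 75739652 to 75739801, − strand) held 65.6% of naïve and 3.88% of pretreated tags.

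In Eif1 the promoter site was nearly missing from 1 group. A promoter window 38 bp after the start (chromosome 11, 100181227 to 100181376, + strand) held 15023 naïve tags, 62.3% of the gene's tags, in 83 of 92 cells. In pretreated cells it held 81 tags in 1 of 85 cells, and the leading window was in intron 1, 625 bp after the start, with 22.4% of tags from 5 cells. With windows within 100 bp of the start alone, the log2 ratio of Eif1 was -7.15, against -1.72 with 1000 bp. A stretch of 36 bases within the first 100 bases of its transcripts occurs in transcripts of 15 other genes, 14 of them annotated pseudogenes, and how reads with several matches were handled is not given in the sources used here. The part of these copies in the difference was not tested.

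**Figure D4:**
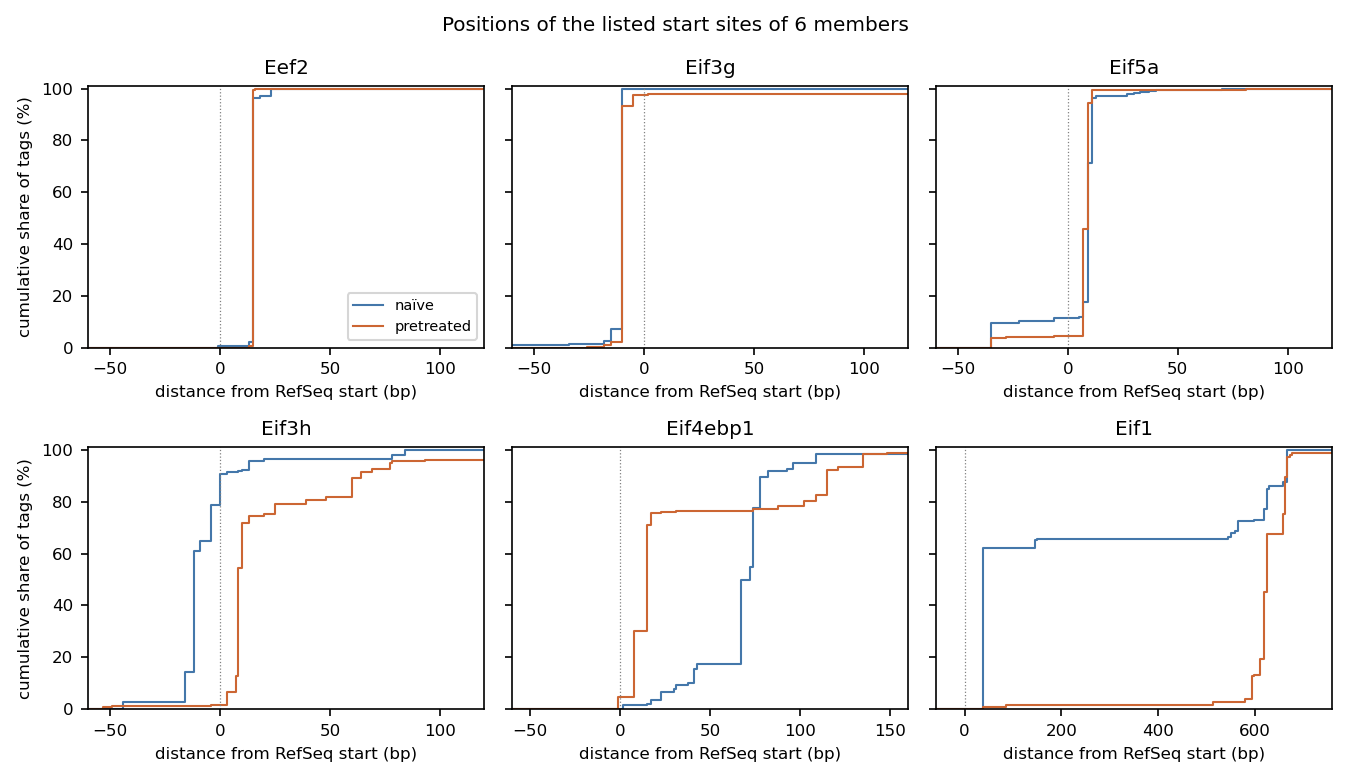
Cumulative share of the tags of 6 genes (y axis, percent) by distance of the window centre from the RefSeq start (x axis, bp; positive is downstream), with naïve cells in blue and pretreated cells in orange. The curves of Eef2, Eif3g and Eif5a step up within 2 bp of the same place in both groups, whereas those of Eif3h, Eif4ebp1 and Eif1 step up at different places.

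Such shared stretches were found for 22 of the 59 members present in GENCODE vM21, and the share over all genes was not computed. Genes were told apart by name alone, so a gene model at the same place in the genome counts as a copy. The shared part ran from 4 of 575 stretches in Eif5a to all 65 in Eif4e3. Levels of these genes are therefore uncertain as measures of expression to differing degrees. For Eef1a1 the copies were 13 pseudogenes, for Eif4a1 5, for Eef1g 3, for Eef2 and Eif4a2 2 each, and for Eif2s1, Eif3h, Eif3m, Eef1d, Eif4b and Eif5a 1 each. In 9 of the 44 genes the median tag lay over 100 bp from the annotated start in a group: Eef1a1, Eef1b2, Eef1g, Eif1, Eif3f, Eif4a2, Eif4b, Eif5b and Eif6. That count was not made over all genes. For Eef1a1 the median distances were 692 and 516 bp, for Eif4b 665 and 658 bp and for Eif3f 290 bp in both groups, so the listed tags of these TOP genes did not gather at the annotated start. Eif4a2 and Eef1b2 instead had a steady site away from it, 290 and 298 bp after the start, with 93.1% and 32.5% of naïve tags and 44.98% and 46.1% of pretreated tags. Eif6 tags were spread within its first exon, with medians of 410 and 450 bp. The windows of Eef1g (118 and 234 bp after the start) lie at the end of a neighbouring transcript and in intron 1, so tags of the neighbouring gene and of Eef1g cannot be told apart.

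A few genes had separate positions in 1 group, at least 50 bp apart with at least 20% of the tags each. In pretreated cells Eif2s1 had windows 39 bp before and 21 bp after the start (chromosome 12, starting at 79962946 and 79963006) with 32.3% and 20.8% of tags from 24 and 14 cells. Its leading naïve window lay 15 bp before the start, with 24.8%. In naïve cells Eif1b had windows 28 and 100 bp after the start, with 21.9% and 23.7% of tags from 9 and 3 cells. The others, Eef1akmt3, Eef1g, Eif1ad, Eif3f, Eif4ebp2 and Eif4g2, rested on at most 4 cells per window.

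The deposited focus ratio gives the fraction of the tags of a peak close to its main position, so 1 is the sharpest. The median over the cells that list a gene was lower in pretreated cells for 38 of the 44 genes (86.4%), and 86.4% of all genes that passed were lower too. The middle value over the 44 was 0.933 in naïve and 0.843 in pretreated cells, and over all genes 0.962 and 0.904. Eef1d went from 0.991 to 0.794, Eif6 from 0.947 to 0.754 and Eif1ax from 0.851 to 0.650. Eef2 stayed sharp, at 0.988 and 0.965, while Eif5a had 0.801 and 0.725 and Eif2s1 0.767 and 0.693, among the broadest in both groups. The exceptions were Eef1a1, Eef1akmt2, Eif1, Eif1a, Eif3e and Eif3f, of which Eif3e went from 0.811 to 0.860.

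**Figure D5:**
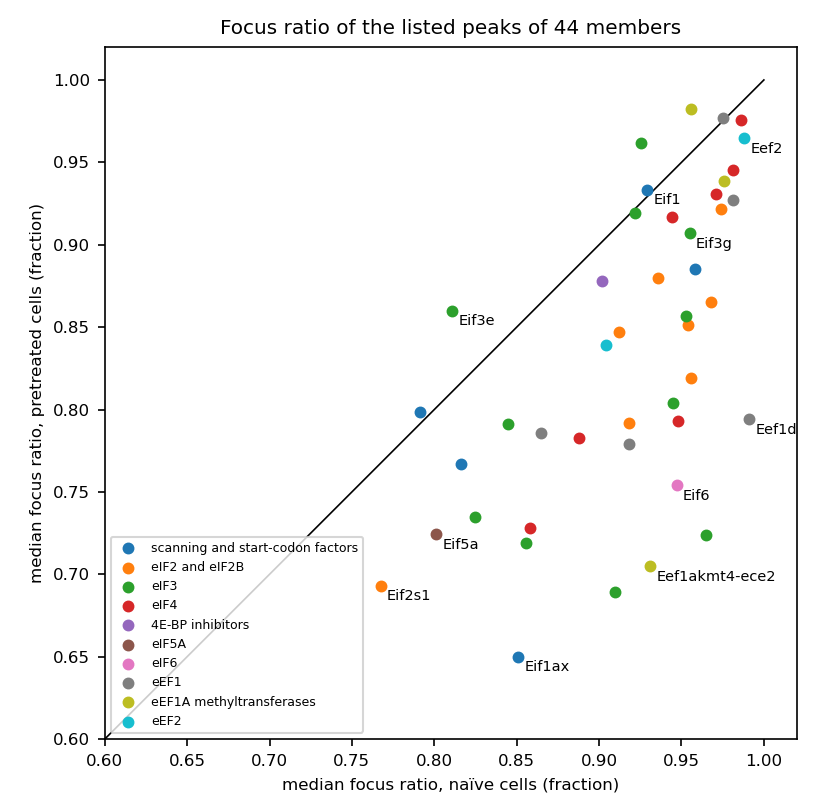
Median focus ratio (fraction) of the listed peaks of each of the 44 genes in naïve (x axis) and pretreated cells (y axis), coloured by role, with the line of equal values. Most points lie below the line, 38 of 44, and Eef2 stays at the upper right.

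Other genes of translation and its control were taken from a list of 39, of which 37 had a tag and 23 passed the minimum. At least 2-fold higher in pretreated cells were 5 (Etf1, Dohh, Dhps, Tsfm and Gfm1) and lower were 3 (Pabpc1, Pabpc4 and Mcts1), with a median log2 ratio of -0.01. Over all genes 27.2% were higher and 10.6% lower, and these counts lie near those shares. Dhps and Dohh, the enzymes that make hypusine on eIF5A, had 11.2 and 30.5 CPM (log2 ratio 1.45) and 38.9 and 89.8 CPM (1.21), beside 1.31 for Eif5a. Pabpc1, the poly(A)-binding protein and a TOP mRNA, had 353 and 123 CPM (-1.52), and Tpt1, another TOP mRNA, 391 and 384 CPM (-0.03). Eif2ak2, the double-stranded-RNA kinase of eIF2 known as PKR, had 106 and 92.9 CPM (-0.19).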

How the data were processed

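Each of the 192 deposited cell files is a HOMER findPeaks list (style tss), with peaks 150 bp wide on separate strands, at least 300 bp apart, over 200 tags per 10000000 tags, at 2-fold over the local 10000 bp and a Poisson p of 1e-04, per the file headers. Alignment used Bowtie2 and the mm9 build, per the submitters' processing notes; read filters are not given in the sources used here. Per the file headers, the deposited signal is a normalized tag count per 10000000 tags, and the focus ratio is a deposited fraction. Multiplying the signal by the header total recovered tags: each of 1082504 peaks gave a whole number, to 0.1 tag or the last printed decimal, and the sum of 426263116 equals the headers' tags in peaks. A peak belonged to the deposited RefSeq window starting within 2 bp of it. Gene strands came from RefSeq or GENCODE vM21. Unused were 384 columns of per-cell values without sample names.

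Tags were summed over kept cells and divided by header totals, with 0.5 tag added for log2 ratios. Groups of 1 sample each allowed no test. The members and lists were chosen with earlier results of these data known. Named by rule were the 12 most abundant members, the 6 highest and 6 lowest ratios, 11 measured genes fixed by name and members with separate windows; others named by role were chosen after their values were seen. Alternatives covered scaling, filters, distance, strand and cells left out. The calculation was tested on simulated data. Python 3.11.15, pandas 2.3.3 and SciPy 1.17.1 were used.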

Additional observations from a re-analysis of the deposited data

Results flagged for a closer look

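Tags assigned to these gene names outside the sense promoter windows were not counted in the levels above. Those between 1000 and 1100 bp from a start were given at the opening. The totals below also take in Eif3j2 and Eif4ebp3, which are not among the 61 genes. Sense tags more than 1000 bp from a start numbered 313350 in naïve and 183820 in pretreated cells. Of these, Eef1a1 held 107742 naïve tags in 90 of 92 cells and 6757 pretreated tags in 36 of 85 cells, against 3812 and 3893 tags within 1000 bp of its start. Its largest such window in naïve cells lay in exon 6 (chromosome 9, 78327234 to 78327383, − strand), with 29289 tags in 18 naïve cells and 337 tags in 2 pretreated cells. A window 15 bp away in the same exon (78327249 to 78327398) had 2887 tags in 6 naïve cells and 3137 tags in 18 pretreated cells. Antisense tags within 1000 bp of a start numbered 199646 in naïve and 425050 in pretreated cells. Windows assigned to Eif1ad held 187809 and 402542 of them, in 92 naïve and 84 pretreated cells, while its own strand held 0 and 487 tags. The largest of these antisense windows lay 170 bp before the start. Windows at this promoter are annotated to different transcripts. Whether the antisense tags belong to a neighbouring gene was not tested, so they are not shown to come from Eif1ad. No cause of these differences was tested.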

How the results depend on the processing

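Over 58 recalculations of the 7 summary values, 40 were labelled the same, 18 moved and 0 reversed. For counts, the same meant within 1.5 times the main count. For the summed log2 ratio it meant within its counting interval. For the median log2 ratio it meant between the medians of the genes' lower and upper limits. Only these log2 ratios could be labelled reversed, so the 0 says nothing of the counts. For all listed tags as denominator, the median log2 ratio was 0.49 and the summed log2 ratio 0.62. Centring on all genes gave 0.0055 and 0.13, with 5 genes higher and 6 lower in place of 10 and 4 (752 and 744 of all 4540 genes, in place of 1233 and 479). Windows within 100 bp gave 0.36 and 0.51, equal weight per cell 0.37 and 0.57, and leaving out the highest cell of each gene 0.53 and 0.57. A minimum of 50 CPM, which left 29 genes, gave 6 higher, a median of 0.28 and 22 listed in more pretreated cells; no minimum gave a median of 0.39. The summed log2 ratio was 0.54 with peaks on both strands and 0.54 without the 2 cells that stand apart, a setting chosen after seeing the data. Chained windows gave 39 genes with the same leading site, in place of 18, since neighbouring windows then count as 1 and chains have no limit of length. Eef2k changed sign in 2 of 8 settings, and Eif1a, Eif1ax, Eif3a, Eif4a3 and Eif4g1 in 1 each. No paired analysis was possible because the groups were not tested and cell numbers pair nothing. Rare genes are limited by the peak minimum of 20 CPM in a cell.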
